A study of Homo sapiens with 6 samples.

Results

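The genes described here were LIMCH1, which encodes a protein with a calponin homology domain and a LIM domain, and 9 other genes of LIM-domain proteins of the actin cytoskeleton, namely LMO7, PDLIM5, PDLIM7, LIMA1, LIMS1, LPP, ZYX, LASP1 and TES. They were chosen by gene name, with earlier results of these data known. Every cassette exon event of the table that carried one of the 10 names was taken. A cassette exon is an exon that is either kept between its neighbours or skipped when the transcript is spliced. The names gave 41 events in 8 of the 10 genes, of 24725 events in 7969 named genes of the table. LIMS1 and LPP had no event and were not analysed here. LIMCH1 had 8 events, LMO7 5, PDLIM5 7, PDLIM7 9, LIMA1 3, ZYX 6, LASP1 1 and TES 2.

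RNA was sequenced in 6 samples of MDA231-BrM2a, an established human breast cancer line that was derived from MDA-MB-231 and forms metastases in brain. The 3 control samples held a non-clonal population with the empty vector pRetroX-Tight-Pur. The 3 RBM47 samples held a single clone, wt#10, in which the same vector carried Flag-tagged wild-type RBM47, an RNA-binding protein, under a promoter induced by doxycycline. All cells were given doxycycline at 10 ng/ml for 3 days before RNA was taken, so the controls share the drug with the RBM47 cells. The clone and the transgene cannot be told apart in this design. RBM47 itself had 0 events in the table, so the transgene could not be checked. The labels do not say that the 3 samples of a group came from separate cultures. Tests over the samples, such as limma, thus measure the spread between these samples, which may be technical. Fisher's exact test pools the reads of a group and does not see that spread, so its p-values cover counting error only.

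LIM domains are zinc-binding folds that bind other proteins, and many LIM proteins sit on actin filaments, stress fibres and focal adhesions, where the cytoskeleton is tied to the matrix. LIMCH1 and LMO7 are related to each other and couple an actin-associated calponin homology domain to a LIM domain. LIMCH1 has been tied to non-muscle myosin II on stress fibres, and LMO7 to cell junctions. Short exons whose length is a multiple of 3 add or remove a few amino acids without a shift of the reading frame.

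The comparison asked whether exon inclusion differed between RBM47-expressing and control cells. In LIMCH1 and in LMO7, 1 event each fell in the RBM47 cells, each by 0.228 on the scale of inclusion rates, which runs from 0 to 1. Both were short coding exons, of 36 bases in LIMCH1 and 30 bases in LMO7. The other 39 events of the LIM genes differed by at most 0.0945, and 0 of them were called by the study criteria or by limma. Of these, 4 were in the range of rates that limma tested, and 0 of the 4 had an unadjusted limma p under 0.05. The 6 events of ZYX, both events of TES and the event of LASP1 differed by at most 0.0311.

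The exons that fell are shown first, since the results turn on them. Each is printed 5′ to 3′ on the plus strand of GRCh37, with the exon in capitals and 40 bases of the intron before it and 20 bases of the intron after it in lower case. They were found by gene name and by the span between the outer ends of the neighbouring exons. According to the study's methods, cell line RNA-seq was mapped to hg19, which is the same build as GRCh37. The table's own coordinates were not those of GRCh37 but lay at a constant distance from them within a gene, 305244 bases lower in LIMCH1 and 1102000 bases lower in LMO7, so they are given as the table has them. LIMCH1 lies at chr4:41640909-41641004 and LMO7 at chr13:76383250-76383339.
LIMCH1: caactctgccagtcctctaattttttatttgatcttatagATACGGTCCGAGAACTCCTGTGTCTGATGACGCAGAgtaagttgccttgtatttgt
LMO7: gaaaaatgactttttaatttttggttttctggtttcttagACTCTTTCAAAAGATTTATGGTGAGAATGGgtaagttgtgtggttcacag

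The exons have several features in common that were not used to choose the genes. LIMCH1 and LMO7 are related to each other, however, so these features are not independent of that choice. The LIMCH1 exon (chr4:41640949-41640984) and the LMO7 exon (chr13:76383290-76383319) are both coding, both have a length that is a multiple of 3, and both start in the same place of the reading frame. The exon before each is 253 bases long in both genes, and the exon after is 127 bases in LIMCH1 and 118 bases in LMO7. The upstream exons share a run of 14 bases, CCTCTGAGAAAGAA, which starts at base 165 of 253 in LIMCH1 and at base 162 in LMO7. Over their whole length, that run included, the upstream exons had 58.8% identical bases in an alignment with 8 gap columns and 37.9% without gaps. The cassette exons themselves share 15 of 36 aligned positions (41.7%). The introns after both exons open with the same 8 bases, GTAAGTTG, which follow 0.887% of the 9588 exons of the table that were matched in the same way. Of those matched exons, 46.0% have a length that is a multiple of 3, 4.37% have at most 36 bases, and the median is 107 bases. The introns differ more, with 19491 bases before and 5532 bases after the LIMCH1 exon, and 4612 and 7977 bases around the LMO7 exon. No test was made of these shared features, which describe this pair of exons alone.

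**Figure D1:**
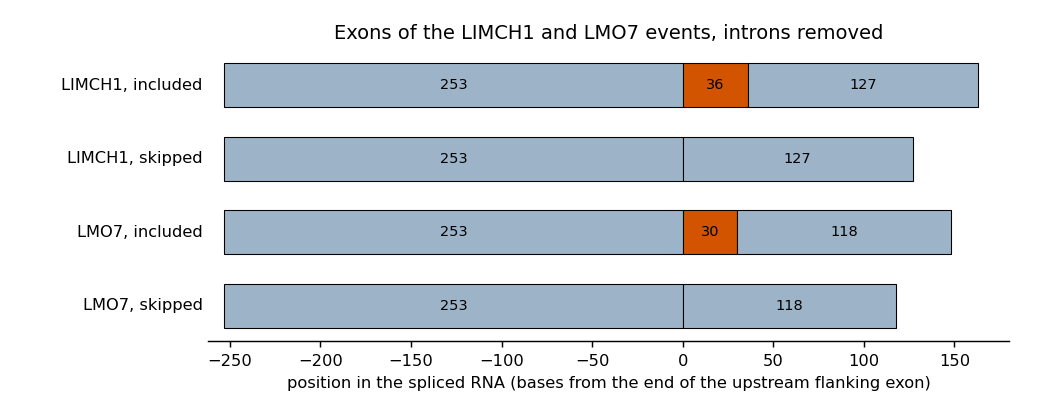
Exons of the LIMCH1 and LMO7 events drawn to scale with introns removed, with the cassette exon in orange and its neighbours in grey-blue. The x axis gives bases from the end of the upstream exon, which has 253 bases in both genes, and the cassette exons have 36 and 30 bases.

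Runs of T were counted in the introns around the exons, where RNA-binding proteins can contact the transcript. In the 100 intron bases before the exon, T made up 42% in LIMCH1 and 39% in LMO7, against a median of 34% over all matched exons, of which the middle 50% ran from 27% to 41%. In the 100 bases after it, T made up 33% in LIMCH1 and 41% in LMO7, against a median of 31% and a middle 50% from 24% to 38%. The letters TTTTT were searched only on the strand that has the sequence of the transcript, and were scored as present or absent. They were present before both exons, as before 40.6% of all matched exons. They were present after neither exon, and after 29.4% of all. Of these 4 values, the LIMCH1 value before the exon and the LMO7 value after it lay above the middle 50%. Such matches are letters only and say nothing of binding.

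An inclusion rate is the share of transcripts that keep the exon, from reads over the junctions of the kept exon and over the junction that skips it. The LIMCH1 exon (event at chromosome 4, 41315961 to 41341399 in the table's coordinates) had rates of 0.947, 0.977 and 0.956 in control replicates 1 to 3. In the RBM47 cells its rates were 0.720, 0.800 and 0.676. Every RBM47 sample lay below every control sample. The means were 0.960 ± 0.0153 in control and 0.732 ± 0.0630 in RBM47 cells (SD, n = 3 each), a difference of -0.228. Summed over the samples of a group, 7 of 321 reads (2.18%, 95% Wilson interval 1.06 to 4.43) skipped the exon in control and 14 of 83 (16.9%, 10.3 to 26.3) in RBM47 cells. Few reads thus lay behind the RBM47 rates, and the intervals, which cover counting error only, did not overlap. Fisher's exact test on these totals gave p = 3.07e-06 (0.000173 after Benjamini-Hochberg adjustment over all events). The limma test over the samples gave an adjusted p of 0.0423. That test was limited to events with a mean rate of 0.1 to 0.9 over both groups, and the LIMCH1 event came under 0.9 only through its RBM47 samples. With no limit on the mean rate its limma adjusted p was 0.0989, which is no call.

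The LMO7 exon (chromosome 13, 75276425 to 75289414) had rates of 0.984, 1 and 1 in the control samples. In the RBM47 cells its rates were 0.762, 0.870 and 0.669. The groups again did not overlap, and RBM47 replicate 2 was the highest and replicate 3 the lowest of the RBM47 samples in both genes. The means were 0.995 ± 0.00935 and 0.767 ± 0.101 (SD, n = 3 each), a difference of -0.228. Skipping reads made up 2 of 680 (0.294%, 95% Wilson interval 0.0807 to 1.07) in control and 46 of 323 (14.2%, 10.8 to 18.5) in RBM47 cells. Fisher's exact test gave p = 1.32e-21 (adjusted 3.66e-19), and limma an adjusted p of 0.00957. As in LIMCH1, the RBM47 samples alone brought the mean rate under the limit of 0.9, and with no limit the limma adjusted p of LMO7 was 0.184. With 3 samples against 3, an exact two-sided permutation test of either exon cannot go below 0.1, and gave 0.1 for both.

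Both events stood in misaligned rows of the deposited table, and their sample rates were placed by the printed RBM47 average alone. In the 253 events placed in this way, all of which passed the study criteria, the control rate from the read totals differed from the placed control mean by a median of 0.0253 and from the printed control average by 0.308. The read totals do not depend on that placement. With the including reads halved, since they can cross either of 2 junctions, the totals gave control and RBM47 rates of 0.957 and 0.711 for LIMCH1 and 0.994 and 0.751 for LMO7, close to the placed means. The control averages printed in the rows (0.459 for LIMCH1 and 0.785 for LMO7) fit neither the totals nor the placed rates. Taken as printed, they would turn the LIMCH1 difference to 0.273 and shrink that of LMO7 to -0.0183. By RT-PCR in control and RBM47-expressing cells, the paper reports that a cassette exon of LIMCH1 was excluded with RBM47. Its text does not give the position of that exon.

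The size and the call of both events moved with single libraries. The LIMCH1 difference ran from -0.262 without RBM47 replicate 2 to -0.1998 without RBM47 replicate 3, and the LMO7 difference from -0.279 to -0.179 without the same libraries. Both values without RBM47 replicate 3 miss the required 0.2, so without that library 0 member events passed the study criteria. The adjusted p from limma stayed under 0.05 for LIMCH1 only when RBM47 replicate 2 was left out (0.0459), and ran from 0.121 to 0.170 without any other library. For LMO7 it was 0.00682 without RBM47 replicate 2 and 0.0259 without control replicate 1, but 0.0552 without control replicate 2, 0.0697 without control replicate 3 and 0.0639 without RBM47 replicate 1. Without RBM47 replicate 3 the LMO7 event had a mean rate above 0.9 and was not tested. RBM47 replicate 2 was the library that stood apart: 14.8% of its rates were exactly 0 or 1 over the 6000 events tested by limma, against 6.10% to 7.63% in the other 5 libraries, and both falls were larger without it.

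Set against the table, 2 of the 41 member events (4.88%) passed the criteria of the study, which ask for an unadjusted Fisher p of at most 0.05, a difference of at least 0.2 and at least 10 reads. Over all events with rates, 1.41% passed, 0.793% lower and 0.615% higher in RBM47 cells. Of these 348 events, 253 were placed by the RBM47 average alone, so the share rests largely on the re-matching of rows. Both member events were lower and 0 were higher. The member genes were chosen with earlier results of these data known, and the LIMCH1 event was among those results. The share of 4.88% is thus a description and not independent evidence. By limma, 6 member events were tested and 2 called, both lower, while 1.53% of the 6000 events tested were called (0.783% lower). Nothing is read from this count, since both events were tested only because their RBM47 rates were low and 0 member events were called with no limit on the mean rate. The p-value alone set the members no further apart, with 6 of 41 events (14.6%) at a Fisher p of at most 0.05 against 14.4% of all events, and all 6 lay in LIMCH1 and LMO7. Control and RBM47 samples were fully separate in 5 member events (12.2%), against 9.93% of all events. The median difference of the members was -0.00132 and that of all events 0, while the median size of the difference was 0.00619 in the members and 0.0114 in all events. Among the members, 23 events were lower in RBM47 cells, 13 higher and 5 without any difference, and the last 5 had a rate of 1 in every sample. Most member exons had little room to be called mid-range, since 24 had a mean rate over 0.9, 11 under 0.1 and 6 between.

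**Figure D2:**
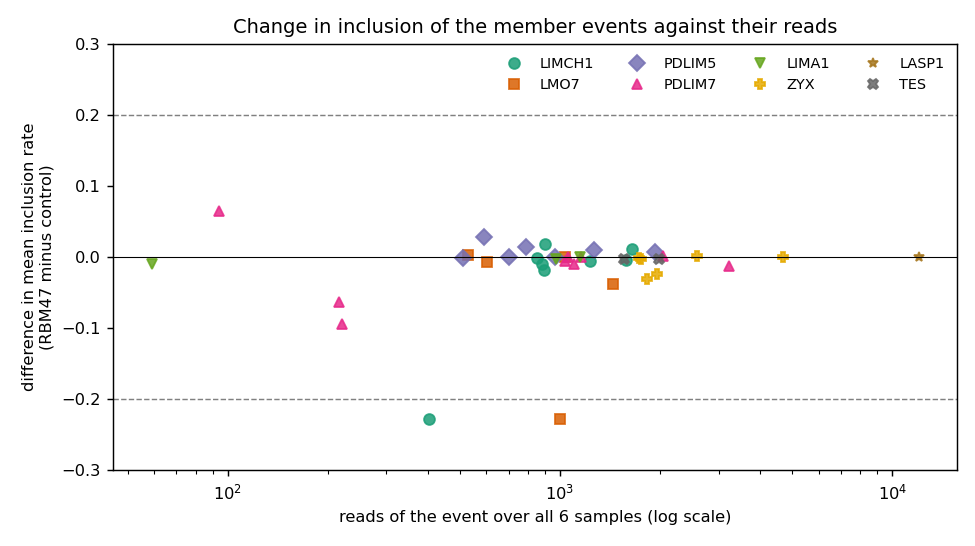
Difference in mean inclusion rate (RBM47 minus control) of the 41 member events against their reads summed over the 6 samples, on a log axis, with a symbol for each gene. Dashed lines mark 0.2 in either direction, and only the LIMCH1 and LMO7 events at -0.228 lie beyond them, while 3 PDLIM7 events with few reads are next in size.

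The other 7 LIMCH1 events differed by at most 0.0187. The best-read LIMCH1 event with a mean rate of 0.1 to 0.9 (chromosome 4, 41368327 to 41376871) had rates of 0.865, 0.844 and 0.864 in control and 0.904, 0.753 and 0.914 in RBM47 cells. Both groups overlapped, and the means of 0.858 and 0.857 differed by less than the spread between samples (limma adjusted p = 0.976). A second event with the same outer ends and the same skipping reads went from 0.919 to 0.915. Taken relative to the first of these sample by sample, the 36-base exon differed by -0.227 (exact permutation test, p = 0.1, the smallest it can give). The event nearest the start of the gene (41295692 to 41302777) went from 0.940 to 0.933, and a 41-base exon (41363334 to 41373235) from 0.989 to 1.

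A 75-base LIMCH1 exon (41363334 to 41368367, GRCh37 chr4:41672735-41672809), named after its values were seen, was almost always skipped. Its rates were 0.00529, 0.00364 and 0 in control and 0.0166, 0.0377 and 0.0108 in RBM47 cells. All RBM47 samples were higher, by 0.0187 in the mean, on 4 including reads of 614 in control and 10 of 287 in RBM47 cells (Fisher's exact test p = 0.00257, adjusted 0.0487). The difference is small beside the 0.2 required for a call, and limma did not test the event because its mean rate was under 0.1. Another 2 events with shared outer ends (41382483 to 41386408) went the other way, from 0.0165 to 0.00636 and from 0.0255 to 0.00775. Their unadjusted Fisher p-values were 0.098 and 0.0286, the second 0.245 after adjustment. The outer ends matched a single 78-base exon. Both events had the same skipping reads but different including reads (18 and 27 in control), so at least 1 of them may not be that exon.

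The other 4 LMO7 events differed by at most 0.0377. That value belonged to a 57-base coding exon (75308533 to 75312246, GRCh37 chr13:76412276-76412332), with rates of 1, 0.972 and 0.955 in control and 0.916, 0.95 and 0.948 in RBM47 cells. All RBM47 samples were below the controls, yet the Fisher p of 0.0252 became 0.226 after adjustment. A neighbouring 42-base exon had a mean rate of 0.00652 in control and 0 in RBM47 cells (unadjusted Fisher p = 0.0395). An event that starts with the same upstream exon as the 30-base exon (75276425 to 75281319) had 0.00125 and 0.00483. For both, the read totals held more including reads than these rates imply, with 21 of 368 in control and 5 of 235 in RBM47 cells for the 42-base exon, and 31 of 383 and 10 of 146 for the other event. With including reads halved the other event went from 0.0422 to 0.0355, the opposite direction, so no direction is read for it. The 109-base exon (75325228 to 75328744) was kept in every sample, with 0 skipping reads of 1032.

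**Figure D3:**
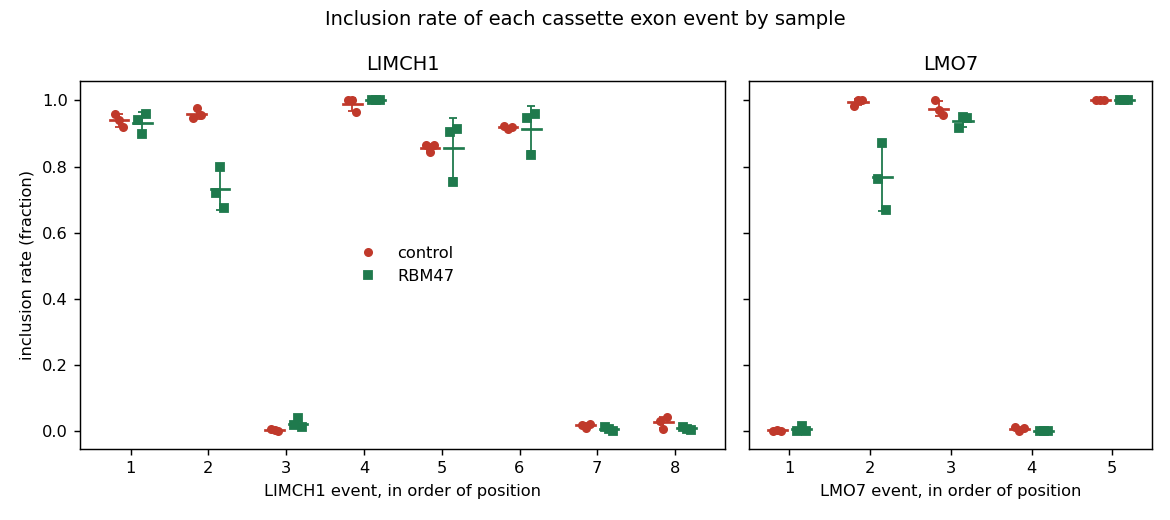
Inclusion rate of each LIMCH1 and LMO7 event in order of position, with 3 control samples (red circles), 3 RBM47 samples (green squares), the mean as a bar and the SD as whiskers. LIMCH1 event 2 (0.960 to 0.732) and LMO7 event 2 (0.995 to 0.767) have all RBM47 samples below the controls, and the means of the other events differ by at most 0.0377.

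PDLIM5 and PDLIM7 join a PDZ domain, which binds actinin at stress fibres and muscle Z-discs, to LIM domains that bind kinases and other proteins. PDLIM5 had 7 events with differences from -0.00132 to 0.0277. Its best-read event (95713524 to 95725910) had rates of 0.991, 1 and 0.989 in control and 1 in all RBM47 samples, on 2 skipping reads of 1221 and 0 of 704. An 18-base PDLIM5 exon, shorter than those of LIMCH1 and LMO7 and in a T-rich stretch (56% T in the 100 bases before it), was mostly skipped, at 0.0215 in control and 0.0201 in RBM47 cells.

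PDLIM7 had the 3 largest differences after LIMCH1 and LMO7, all on few skipping reads. In the first (176851010 to 176852041) the rates were 0.538, 0.273 and 0.556 in control and 0.750, 0 and 0.333 in RBM47 cells. These samples spread over most of the range within 1 group, and the difference of -0.0945 had a limma adjusted p of 0.810. Its direction was not stable, since the difference was -0.289 without RBM47 replicate 1 and 0.0861 without RBM47 replicate 2. From the read totals with including reads halved the difference was 0.0566. The totals held more including reads than the sample rates imply, with 71 of 80 in control and 129 of 140 in RBM47 cells. With including reads halved they gave rates of 0.798 and 0.854, so neither level nor direction is read for this event. The second (-0.0631, limma adjusted p 0.845) has the same outer ends, the same skipping reads and the same RBM47 rates, so it is not separate evidence. Its totals likewise gave higher rates than its samples, 0.788 in control and 0.854 in RBM47 cells with including reads halved. The third (176850616 to 176852041, 94 reads) went from 0.679 to 0.744 (limma adjusted p 0.955). The best-read PDLIM7 event (176848999 to 176850512) went from 0.993 to 0.981 without overlap between the groups, with a Fisher p of 0.0692.

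LIMA1, also called EPLIN, cross-links actin filaments and limits their turnover. Its best-read event (48861953 to 48875936) had a rate of 1 in all 6 samples, with 0 skipping reads of 1152. Taken as 3 reads of that total, with including reads not halved, this allows skipping in up to 0.260% of reads. Its other 2 events had mean rates of 0.00264 and 0.00952 in control and were listed at 0 in RBM47 cells. Their read totals were not 0, with 24 including reads of 625 in control and 8 of 349 in RBM47 cells for the first and 4 of 44 and 1 of 15 for the second.

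ZYX (zyxin), a focal adhesion protein that recruits actin assembly factors to strained filaments, had its best-read event (142789462 to 142790185) at 0.992, 0.997 and 1 in control and 0.989, 1 and 1 in RBM47 cells. Mean rates were 0.996 in both groups, on 4687 reads. The largest ZYX difference was -0.0311, from an event with rate 1 in all controls and 1, 0.918 and 0.988 in RBM47 cells, on 3 skipping reads. TES (testin), a partner of zyxin, had rates of 1 in all controls and 0.99, 1 and 1 in RBM47 cells at its best-read event (115677450 to 115679765), on 1 skipping read of 1986. LASP1, an actin-binding protein with a LIM and an SH3 domain, had the deepest member event, with 0 skipping reads of 12050. On the same basis as for LIMA1, this allows skipping in up to 0.0249% of reads. All events of these 3 genes had more reads than the LIMCH1 and LMO7 events that fell.

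The number of junction reads, as opposed to the share that kept an exon, also differed between the genes. Summed over its events, LIMCH1 was covered by 5946 reads in the control group and 2436 in the RBM47 group, a ratio of 0.410. All 8 of its events had ratios between 0.259 and 0.467. The whole table had a ratio of 0.910, and the median over 7518 genes with at least 100 reads was 0.859, with quartiles of 0.653 and 1.07. LIMCH1 was at percentile 5.88 of these genes, and 443 genes had a ratio as low or lower. LIMA1 (0.552), PDLIM5 (0.602) and LMO7 (0.609) lay below the lower quartile too. TES (0.803), LASP1 (0.890) and ZYX (0.945) lay near the middle, and PDLIM7 (1.13) above the upper quartile, with all 9 events at 1.01 to 1.84. Reads per sample were not used here, events of a gene share reads, and fewer cells of a kind and less RNA per cell cannot be told apart in these bulk samples, so the ratios are a description with no test. The RBM47 rates of LIMCH1 and LMO7 thus rested on fewer reads than the control rates, and the part of this in the inclusion rates was not tested.

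**Figure D4:**
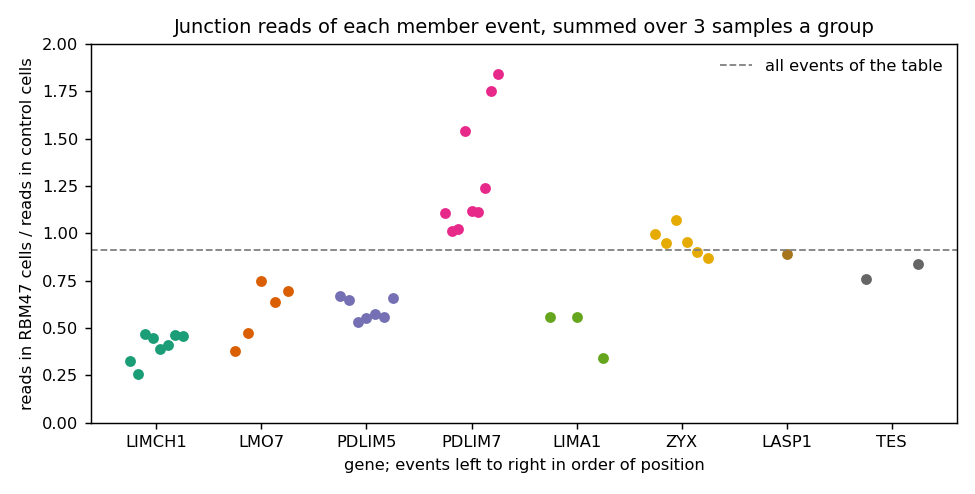
Junction reads in RBM47 cells divided by those in control cells for each member event, summed over 3 samples a group, with events in order of position within each gene. The dashed line is the whole table (0.910); all LIMCH1 events lie between 0.259 and 0.467 and all PDLIM7 events between 1.01 and 1.84.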

How the data were processed

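The authors deposited 1 table of cassette exon events with an inclusion rate (fraction) for each of 6 samples, the average fraction of each group and read counts summed over the 3 samples of a group. The including totals of some events hold more reads than the rates imply. The deposited differences, odds and p-values are the authors' own comparison and were not used, except that Fisher's exact test recomputed here gave their p-value within 0.00201 on the log10 scale. The submitters' processing notes name TopHat, while the methods section gives mapping of cell line reads to hg19 with STAR, and neither says which of them made this table. Reads summed to 26498401 in control and 24116982 in RBM47 cells. The depth of each sample is unknown, so intervals are given only for group totals.

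In 1392 of 24725 rows the rates did not average to the printed averages (tolerance 3e-09). Rates were re-matched by both averages (1122 rows) or by the RBM47 average alone (253 rows), and 17 rows stayed without rates, which left 24708 events. Of the member events, 37 were aligned as deposited and 4 were re-matched.

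Fisher's exact test (two-sided, scipy 1.17.1) was run on the group totals of all events. limma 3.58.1 (R 4.3.3) took the rates after an arcsine square root transformation, let the variance depend on log2 reads and covered 6000 events with a mean rate of 0.1 to 0.9. Events were called at a Benjamini-Hochberg adjusted p below 0.05 where the mean rates differed by 0.2 or more. A count model needs counts per sample and could not be fitted. Replicate numbers gave no sign of pairing (correlation of deviations between same-numbered samples -0.0225, -0.00550 and 0.0139). Counting noise in single events can hide a pairing, so these values cannot exclude it.

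Exons and sequences come from GRCh37 with GENCODE v44lift37. Events were named with the value of every sample if they passed a test, had a Fisher p of at most 0.05 with a difference of at least 0.1, or were the best-read event of their gene (with a mean rate of 0.1 to 0.9 where there was one). Alternatives covered the criteria, the form of the rates, the row matching, the limma settings and each sample left out. The member genes, lists and the form of the limma test were chosen with earlier results of these data known.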

Additional observations from a re-analysis of the deposited data

How the results depend on the processing

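The 2 member calls by the study criteria remained 2 with adjusted Fisher p-values, a required difference of 0.1, other read minimums and halved including reads, and 0 events were higher in each of these. The lower count was 0 with a required difference of 0.3, with rates from summed reads (-0.147 for LIMCH1 and -0.139 for LMO7), with the printed averages (0.273 for LIMCH1, a reversed direction that made 1 higher call, and -0.0183 for LMO7) and with aligned rows alone, which hold neither event by construction. It was 1 (LMO7) with rates left in the row as deposited. Leaving out single samples gave 0 to 2 calls, with differences of -0.262 to -0.1998 for LIMCH1 and -0.279 to -0.179 for LMO7, and both calls were lost without RBM47 replicate 3.

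The 2 limma calls became 1 (LMO7) with untransformed rates, and 0 without the variance trend, without the limit on the mean rate or with aligned rows alone. With aligned rows alone, limma called 1 of the 5355 events tested over the whole table. The adjusted p-values of LIMCH1 and LMO7, added after seeing the data, were 0.0632 and 0.0398 with untransformed rates, 0.0732 and 0.0946 without the trend, and 0.0989 and 0.184 without the limit. Leaving out single samples gave 0 to 2 calls, with adjusted p-values of 0.0459 to 0.170 for LIMCH1 and 0.00682 to 0.0697 for LMO7, while the calls over all events fell from 92 to between 49 and 76. With the replicate block, 1 call (LMO7, adjusted p 0.0217) of 69 in all was left and LIMCH1 had an adjusted p of 0.0947. The numbers do not pair the samples, so the block is given as a check only. For the other 7 named events, all 79 values under the alternatives were without a call, as reported. The PDLIM7 difference of -0.0945 moved most, to -0.289 without RBM47 replicate 1, and turned to 0.0861 without RBM47 replicate 2, 0.0339 from summed reads and 0.0566 with including reads halved. The differences near 0 of the mid-range LIMCH1 event and of ZYX also changed sign under some settings. Depth limits the LIMCH1 event, with 83 reads in RBM47 cells.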

Other observations

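Other LIM-domain genes of the actin cytoskeleton (33 listed, such as the paxillin and FHL families, 23 with events) had 69 events, of which 0 passed the study criteria in either direction and 0 of 15 tested passed limma (1 had an unadjusted limma p under 0.05, and 10 of the 69 a Fisher p of at most 0.05). Their median difference was 0 and the median size of a difference was 0.0111, against 0.0114 over all events. Of all events, 1.41% passed the study criteria.

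Among 27 focal adhesion and myosin partners of the LIM proteins, 20 had events, 81 in all. Of these 81 events, 4 passed the study criteria (4.94%, against 1.41% of all events), 3 higher and 1 lower. By limma, the lower event alone was called of 17 tested, against 1.53% of all events tested. A Fisher p of at most 0.05 was found in 18 of the 81 events, against 14.4% of all events. An unadjusted limma p under 0.05 was found in 3 of the 17. The lower event lay in MYL6, the essential light chain of non-muscle and smooth muscle myosin II (chromosome 12, 54840293 to 54841624). Its rates were 0.353, 0.335 and 0.327 in control samples. In the RBM47 samples they were 0.1, 0.0889 and 0.107. The groups were far apart with little spread, with means of 0.339 ± 0.0133 and 0.0988 ± 0.00925 (SD, n = 3 each), a difference of -0.240 and a limma adjusted p of 0.000252. It rested on 17337 reads in control and 16615 in RBM47 cells, far more than either LIM event, and ran from -0.245 to -0.232 when single samples were left out. Like the LIMCH1 and LMO7 events it was placed by the RBM47 average alone, and its read totals with including reads halved gave 0.347 in control and 0.104 in RBM47 cells.

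The 3 higher events did not pass limma. Both PPP1R12A events, in the gene of the targeting subunit of myosin phosphatase, share outer ends and skipping reads and differed by 0.211 and 0.210 (limma adjusted p 0.361 and 0.402), and by 0.125 and 0.133 without RBM47 replicate 2. The first of these and the SORBS2 event were also placed by the RBM47 average alone. The SORBS2 event, in the gene of an adaptor at adhesions, differed by 0.400 on 27 reads in control and 50 in RBM47 cells (limma adjusted p 0.424).

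The sample pattern of the LIMCH1 exon was compared with all other events by the Euclidean distance over the 6 rates. The nearest events of other genes were in FAM49B (distance 0.0680), RPL12 (0.0723), SLMAP (0.0746), FBXL13 (0.0760) and FOXM1 (0.0846). The LMO7 exon was at 0.103 and ranked 7 of 24700 events. It was looked up because it passed the same criteria as the LIMCH1 exon, so its short distance follows in part from that choice. In all 5 of the nearest events the rates were high in control and lower in RBM47 cells, with differences from -0.277 to -0.188, which the choice by distance fixes.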
